A study of Rattus norvegicus with 6 samples.

Results

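SOX genes encode transcription factors that bind DNA through a conserved HMG box, and 7 of them were followed here in rat condylar cartilage cultures: Sox9, Sox8 and Sox10 (the SOXE group), Sox5 and Sox6 (the SOXD group), and Sox4 and Sox11 (the SOXC group). They were chosen by gene symbol, as 7 of the 17954 genes in each deposited table, which holds 15 Sox genes in all. The organoid group had 3 libraries of condylar cartilage organoid grown in a chondrogenic medium. The 2D culture group had 3 libraries of chondrocytes (cartilage cells) of the mandibular condyle, the head of the jaw joint, kept as flat cultures in DMEM with 20% fetal bovine serum. All were rat, and the labels name no strain, age, donor animal or time in culture. The medium differed together with culture format, so their shares in any difference cannot be told apart. The labels do not say whether replicate libraries are biologically separate. Every p-value here therefore reflects spread among these libraries, which may be technical. In bulk RNA, fewer cells of a type and less RNA per cell cannot be told apart.

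In cartilage, SOX9 is required for cells to become chondrocytes, and SOX5 and SOX6 bind beside it and increase its activity on genes of the cartilage matrix. SOX8 and SOX10 are close relatives of SOX9 with main roles in neural crest, glia and other tissues. SOX4 and SOX11 act mainly in progenitor cells, in mouse skeletal mesenchyme before and during cartilage formation among other places. Much of the binding of SOX9 to cartilage genes lies in introns and distant enhancers as well as in promoters.

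SOX proteins recognise short, AT-rich DNA words. Promoter windows from 250 bases before to 50 bases after the annotated start (RefSeq, build GRCr8) were searched on both strands for the 8 words of the form NNCAANG in which each N is adenine or thymine. Windows existed for 2 of the 7 SOX genes (Sox6 and Sox11) and for 19 of 25 listed SOX target genes of cartilage. Among these 21 windows only Sox6, Mia and Col10a1 held a word, and these are shown, 5′ to 3′ on the gene's strand, with each match in capitals (a match on the other strand reads as its reverse complement). Sox6 (chr1:179665322-179665621, minus strand) had 2 words, Mia (chr1:91602970-91603269, minus strand) and Col10a1 (chr20:39737286-39737585, plus strand) had 1 each.
Sox6: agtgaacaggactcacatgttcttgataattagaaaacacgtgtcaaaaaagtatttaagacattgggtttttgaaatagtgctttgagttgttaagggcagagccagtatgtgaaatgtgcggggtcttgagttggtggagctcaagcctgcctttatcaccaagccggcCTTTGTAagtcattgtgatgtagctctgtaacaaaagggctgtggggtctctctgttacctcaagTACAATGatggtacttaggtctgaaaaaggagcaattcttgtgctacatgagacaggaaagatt
Mia: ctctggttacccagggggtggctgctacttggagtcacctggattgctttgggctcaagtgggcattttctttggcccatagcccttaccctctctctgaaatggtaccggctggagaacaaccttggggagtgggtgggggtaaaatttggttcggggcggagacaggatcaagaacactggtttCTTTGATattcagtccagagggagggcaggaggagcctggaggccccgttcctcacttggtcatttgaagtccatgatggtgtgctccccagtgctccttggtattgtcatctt
Col10a1: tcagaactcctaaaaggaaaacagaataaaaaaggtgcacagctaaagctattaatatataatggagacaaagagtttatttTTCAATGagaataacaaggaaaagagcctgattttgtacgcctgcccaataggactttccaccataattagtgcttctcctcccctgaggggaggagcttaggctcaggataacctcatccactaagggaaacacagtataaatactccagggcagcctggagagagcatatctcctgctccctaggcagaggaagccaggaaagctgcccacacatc
Words were thus present in 2 of 19 target windows (10.5%), against 15.4% of the 10615 windows of genes tested and 25.1% of all 27457 windows in the table. A match is not evidence of binding, and a window without these letters says nothing of sites elsewhere.

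Library totals were 18592574 to 25656808 estimated counts in organoids and 25856486 to 26472447 in 2D cultures. Levels are CPM, counts scaled to library size, after TMM scaling, a correction for differences in RNA composition, and are not divided by transcript length, so levels of different genes are not compared. Fold changes are log2 of organoid over 2D culture ± SE from edgeR's quasi-likelihood test, and a gene was called at a Benjamini-Hochberg adjusted p under 0.05 over all 13052 genes tested. Organoid libraries varied more than 2D cultures, with a median SD of log2 CPM over all tested genes of 0.689 in organoids and 0.137 in 2D cultures. Col1a1 alone took 20.0% to 26.4% of counts in organoids and 3.31% to 4.35% in 2D cultures.

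Of the 7 genes, 5 passed the low-count filter (Sox4, Sox5, Sox6, Sox8 and Sox9), and the other 2 (Sox10 and Sox11) did not. The 5 had at least 80 counts in every 2D culture, so they did not enter the test through the organoids alone. Each of the 5 rose in organoids, in a comparison in which 14.9% of all tested genes were called higher, 12.6% lower and 27.5% in either direction. For the same 5 genes every organoid stood above every 2D culture, as it did for 23.4% of tested genes, while 53.5% of tested genes had groups that did not overlap in either direction and 40.6% had an unadjusted p under 0.05. All counts of the 7 genes were whole numbers, so none carried a fractional share of ambiguous reads.

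**Figure D1:**
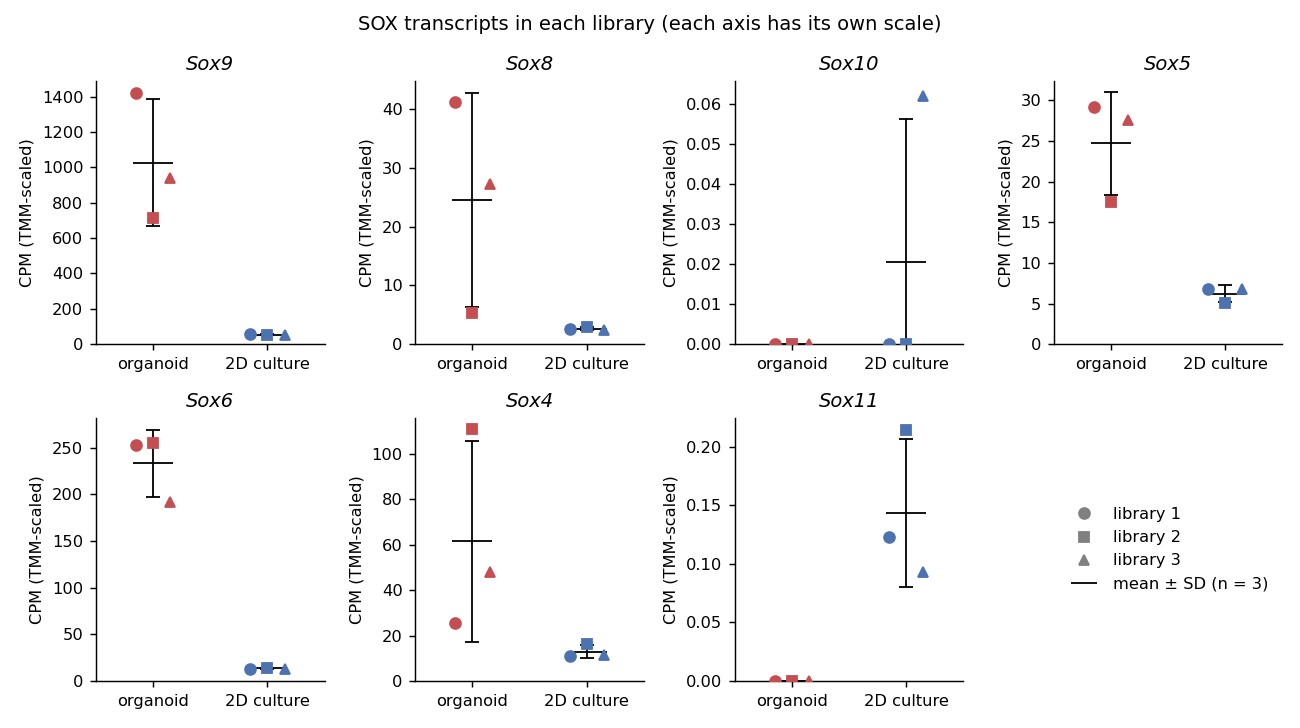
TMM-scaled CPM (y axis, a separate scale for each gene) of the 7 SOX genes in 3 organoid and 3 2D culture libraries, with mean and SD. Organoids lie above 2D cultures for Sox9, Sox8, Sox5, Sox6 and Sox4, while Sox10 and Sox11 have no counts in organoids.

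Sox9 (gene ID 140586), the central SOXE factor of cartilage, had 1420, 716 and 942 CPM in organoids 1, 2 and 3, against 55.4, 54.3 and 51.4 CPM in 2D cultures 1, 2 and 3. The groups were far apart, with organoid 1 the highest and organoid 2 the lowest organoid. The log2 fold change was 4.26 ± 0.33, a 19.1-fold rise (edgeR adjusted p = 0.000601). The flat cells still had Sox9 transcripts, with 1660 to 1808 counts per 2D culture.

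Sox8 (gene ID 302993), a relative of Sox9 that is also expressed in developing skeletal tissue of the mouse, had 41.3, 5.23 and 27.3 CPM in organoids and 2.54, 2.996 and 2.48 CPM in 2D cultures. Organoid 2 lay much closer to the flat cultures than to the other organoids, and the groups still did not overlap. The log2 fold change was 3.20 ± 0.74, a 9.19-fold rise (edgeR adjusted p = 0.0207). Without organoid 2 it was 3.73 (edgeR adjusted p = 0.000878). The call was lost without any single 2D culture (edgeR adjusted p = 0.0839 to 0.0957) and with limma-voom (adjusted p = 0.0681).

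Sox10 (gene ID 29361), the SOXE factor of Schwann cells and melanocytes, had 0 counts in every organoid and 0, 0 and 2 counts in 2D cultures 1, 2 and 3. A count of 0 allows up to 3 counts, or 0.0548 CPM over the organoids together, and both groups were at or under that limit, so no fold is given. Most markers of cells that use Sox10 were low as well. Among 10 Schwann or glial markers in the files, Mbp, Erbb3, Foxd3 and Dhh were each at most 0.521 CPM in any library, with Foxd3 at 0 throughout. Gfra3 and Cdh19 reached at most 1.12 CPM, and Egr2, a factor not restricted to glia, had 1.30, 15.4 and 0 CPM in organoids and 7.39, 6.05 and 6.84 CPM in 2D cultures. Melanocyte markers had no counts of Dct in any library, and Tyrp1 had 0 counts in organoids and at most 0.245 CPM in 2D cultures. S100b, a calcium-binding protein gene of both glia and chondrocytes, was the called exception. It had 173, 71.7 and 152 CPM in organoids, against 14.9, 17.4 and 15.6 CPM in 2D cultures, and rose by 3.05 ± 0.37 (edgeR adjusted p = 0.00243). It made up most of the summed level of that list, which was 88.4 to 177 CPM in organoids and 25.4 to 26.6 CPM in 2D cultures. Summed melanocyte markers were at 3.60 to 17.7 CPM in organoids and 8.19 to 10.1 CPM in 2D cultures.

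Within the SOXE group the count of Sox8 relative to Sox9 was lower in organoids, at 2.91%, 0.731% and 2.89% of the Sox9 count in organoids 1, 2 and 3, against 4.59%, 5.51% and 4.82% in 2D cultures 1, 2 and 3. This ratio does not depend on library scaling. Its mean log2 value was -5.77 ± 1.14 in organoids and -4.33 ± 0.14 in 2D cultures (SD, n = 3 each), a difference of -1.44. The two-sided exact permutation test over the 6 libraries gave p = 0.1, the smallest value that 3 against 3 allows (0.1 also after adjustment over the pair of ratios tested).

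Sox6 (gene ID 293165), a SOXD coactivator of SOX9 with no activation domain of its own, was the most even of the rises. It had 253, 255 and 191 CPM in organoids, against 13.1, 14.3 and 12.8 CPM in 2D cultures. The highest organoid was 1.33 times the lowest, and every organoid lay far above every 2D culture. The log2 fold change was 4.12 ± 0.23, a 17.4-fold rise (edgeR adjusted p = 0.000197). Its promoter window is the first of those printed above.

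Sox5 (gene ID 140587), the other SOXD gene, had 29.1, 17.4 and 27.6 CPM in organoids and 6.77, 5.07 and 6.84 CPM in 2D cultures. The groups did not overlap, and the second library was the lowest of each group. The log2 fold change was 1.99 ± 0.34, a 3.96-fold rise (edgeR adjusted p = 0.00772). Leaving out any 2D culture took the adjusted p just past the threshold (edgeR, 0.0504 to 0.0534).

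The balance between the SOXD genes differed between the groups. Sox5 counts were 11.5%, 6.83% and 14.4% of Sox6 counts in organoids 1, 2 and 3, against 51.6%, 35.4% and 53.6% in 2D cultures 1, 2 and 3. The groups were fully separated, with mean log2 ratios of -3.26 ± 0.55 in organoids and -1.11 ± 0.33 in 2D cultures (SD, n = 3 each). The difference was -2.14, and the two-sided exact permutation test again gave its smallest possible value, p = 0.1 (adjusted p = 0.1). Transcripts of different length yield different counts, so the percentages themselves are not molar shares. Their change between groups is free of length only if each gene has the same mix of transcript forms in both groups. That mix was not tested.

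Sox4 (gene ID 364712), a SOXC factor of progenitor cells, had 25.6, 111 and 48.2 CPM in organoids and 11.2, 16.3 and 11.3 CPM in 2D cultures. Library 2 was the highest of each group, and the lowest organoid stood only a little above the highest 2D culture. The log2 fold change was 2.25 ± 0.55, a 4.76-fold rise (edgeR adjusted p = 0.0248). The call was lost without any single 2D culture (edgeR adjusted p = 0.0788 to 0.109) and with scaling by total counts instead of TMM (1.71, edgeR adjusted p = 0.0661). Without organoid 2 the change was 1.56 (edgeR adjusted p = 0.0195).

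Sox11 (gene ID 84046), its SOXC relative, had 0 counts in every organoid and 4, 7 and 3 counts in 2D cultures 1, 2 and 3, which is 0.123, 0.214 and 0.0929 CPM. Set against a limit of 3 counts over the organoids together, it was at least 2.62-fold lower there, if the 14 counts over the 2D cultures are taken as exact. Counts this small carry no test in the filtered fit. With no filter on low counts it did not pass (edgeR adjusted p = 0.0996). The ratios of Sox4 to Sox11 and of Sox10 to Sox9 were not computed, because Sox11 and Sox10 had 0 counts in organoids. Among 10 genes linked to SOXC factors elsewhere, 7 were tested, 0 rose and 1 fell, a count near the background of 14.9% higher and 12.6% lower over all tested genes. The median log2 fold change of the 7 was nonetheless -1.44, against -0.03 over all tested genes. The one that fell was Stmn1, a microtubule regulator of dividing and migrating cells, which had 29.2, 28.8 and 87.9 CPM in organoids and 222, 248 and 233 CPM in 2D cultures (-2.27 ± 0.48, edgeR adjusted p = 0.0160). Stmn1 had fractional counts in 3 libraries and lost its call without any single 2D culture, and its change was -3.02 without organoid 3. Of the 10 genes linked to SOXC factors, 3 were not tested. Gdf5 had 418, 0 and 243 counts in organoids 1, 2 and 3, against 0, 6 and 4 in 2D cultures 1, 2 and 3. Dcx had 6 counts over the organoids and 0 over the 2D cultures, and Prox1 had 2 and 25.

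**Figure D2:**
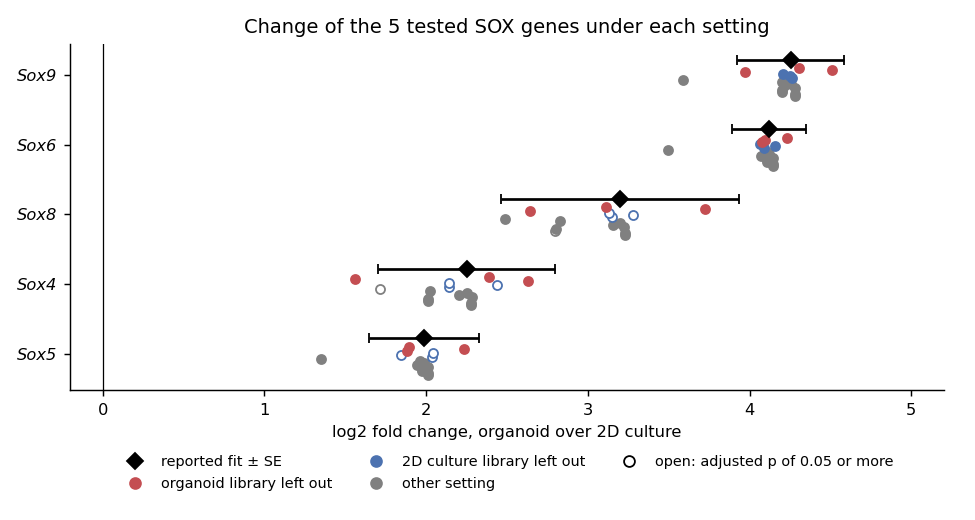
Log2 fold change, organoid over 2D culture (x axis), of the 5 tested SOX genes in the reported fit (diamond, ± SE) and in each other setting (circles, open where the adjusted p was 0.05 or more). Sox9 and Sox6 stay filled in every setting, and open circles for Sox8, Sox4 and Sox5 come mostly from fits that leave out a 2D culture.

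By size, the rises ran from Sox9 and Sox6 through Sox8 to Sox4 and Sox5. Sox9 and Sox6 differed by less than their standard errors, as did Sox4 and Sox5, and Sox8 lay between these pairs with the largest SE of the 5. Sox9 and Sox6 were called in every setting run, with adjusted p no higher than 0.0107 for Sox9. Without any single 2D culture only Sox6 and Sox9 of the 5 were called, in fits in which the number of called genes dropped to 1109 to 1211 of all genes, against 3594 with all libraries. Under scaling by total counts the median log2 fold change of all genes shifted by -0.61, and 23.1% of called genes were higher, against 54.1% with TMM. Relative to that shift the 5 genes stood at 4.199 (Sox9), 4.11 (Sox6), 3.10 (Sox8), 2.33 (Sox4) and 1.96 (Sox5).

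The 8 other Sox genes in the files were low. Sox2 had no counts in any library, and Sox7, Sox12, Sox15 and Sox17 were each at most 0.331 CPM in any library. Sox30, with 2.04 CPM in organoid 2, had 0 in the other organoids and at most 0.217 CPM in 2D cultures. Sox18, known from endothelial cells, had 0.530, 4.99 and 3.03 CPM in organoids and 0.368, 0.275 and 0.371 CPM in 2D cultures. Every organoid lay above every 2D culture, but Sox18 did not pass (3.06 ± 0.98, edgeR adjusted p = 0.0584). It passed without organoid 1 (edgeR adjusted p = 0.0119) and with DESeq2 (adjusted p = 0.0105). Endothelial markers summed to 2.98 to 6.61 CPM in organoids and 0.520 to 0.805 CPM in 2D cultures, and 2 of the 8 were tested, of which Cldn5, a tight junction gene, was called. Most of that sum in organoids 2 and 3 was Cldn5. Kdr went the other way, with 0 counts in every organoid and 5, 11 and 17 counts in 2D cultures. Among the organoids, Pecam1, Cdh5 and Emcn had counts in organoid 1 only. Tek, Tie1 and Vwf were each at most 1.74 CPM in any library, with overlapping groups. Cldn5 had 0.884, 4.21 and 2.84 CPM in organoids and 0 counts in 2D cultures, at least 86.2-fold higher. It entered the test through the organoids alone, and it lost its call without any single 2D culture. The part of other cell types in the Sox18 values was not tested. Sox13, the remaining SOXD gene, had 1.71, 1.62 and 0 CPM in organoids and 0.858, 1.25 and 1.15 CPM in 2D cultures, with overlapping groups and no call (0.03 ± 1.34, edgeR adjusted p = 0.991).

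Genes of the cartilage matrix and growth plate that are known SOX targets were higher in organoids with few exceptions. Of 25 listed, 22 were tested, 21 rose, 0 fell and 1 did not pass, while 14.9% of all tested genes rose. Of the 22, 6 (Col9a1, Col11a2, Matn3, Snorc, Mia and Ucma) had under 10 counts in at least 1 2D culture, so their place in the test rested on the organoids. Of the other 16, with at least 10 counts in every 2D culture, 15 rose and 0 fell. The filter left out Matn1, Cnmd and Scrg1, which had 158, 316 and 87 counts over the organoids and 1, 0 and 0 counts over the 2D cultures. Cnmd, a cartilage-specific inhibitor of vessel growth, had 14.1, 0 and 3.64 CPM in organoids, at least 188-fold above 2D cultures over the group. Many of these rises were larger than those of the SOX genes themselves. Col2a1, the main collagen of cartilage, changed by 13.11 ± 1.33, Col9a1 by 12.22 ± 1.78, Col11a2 by 12.01 ± 0.68, Col10a1 of hypertrophic cartilage by 11.57 ± 1.13 and Col9a3 by 11.31 ± 0.98 (edgeR adjusted p = 0.000242 to 0.00467), and Col9a1 lost its call with limma-voom. Without organoid 1 the change was 11.82 for Col2a1, 10.92 for Col9a1, 10.98 for Col10a1 and 10.26 for Col9a3. Col9a1 was at 13.92 without 2D culture 1 and 12.82 without organoid 2, and Col11a2 at 12.84 without 2D culture 2. The other called targets ran from 2.18 ± 0.45 for Col11a1, which lost its call without any single 2D culture and was at 1.57 without organoid 1, to 10.74 ± 2.06 for Matn3, which ranged from 9.15 to 12.16 with 1 library left out. Some changed by amounts close to those of Sox9, Sox6 or Sox8. Xylt1 rose by 4.39 ± 0.41. Fgfr3, a receptor that restrains chondrocyte division, rose by 3.90 ± 0.27, and Chst11, a chondroitin sulfotransferase, by 3.61 ± 0.34. Papss2, which makes the sulfate donor, rose by 3.42 ± 0.34. Acan, the aggregating proteoglycan, was the exception: it had 8278, 1717 and 3044 CPM in organoids, against 1454, 1513 and 1413 CPM in 2D cultures. Its groups did not overlap, yet the change of 1.57 ± 0.57 was not called (edgeR adjusted p = 0.0824). It was called without organoid 2 (edgeR adjusted p = 0.0164), with DESeq2 (adjusted p = 0.00892) and with limma-voom using group weights (adjusted p = 0.0180). Without organoid 1 its change was 0.73 (edgeR adjusted p = 0.115), and with total-count scaling it was 0.83 (edgeR adjusted p = 0.182).

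**Figure D3:**
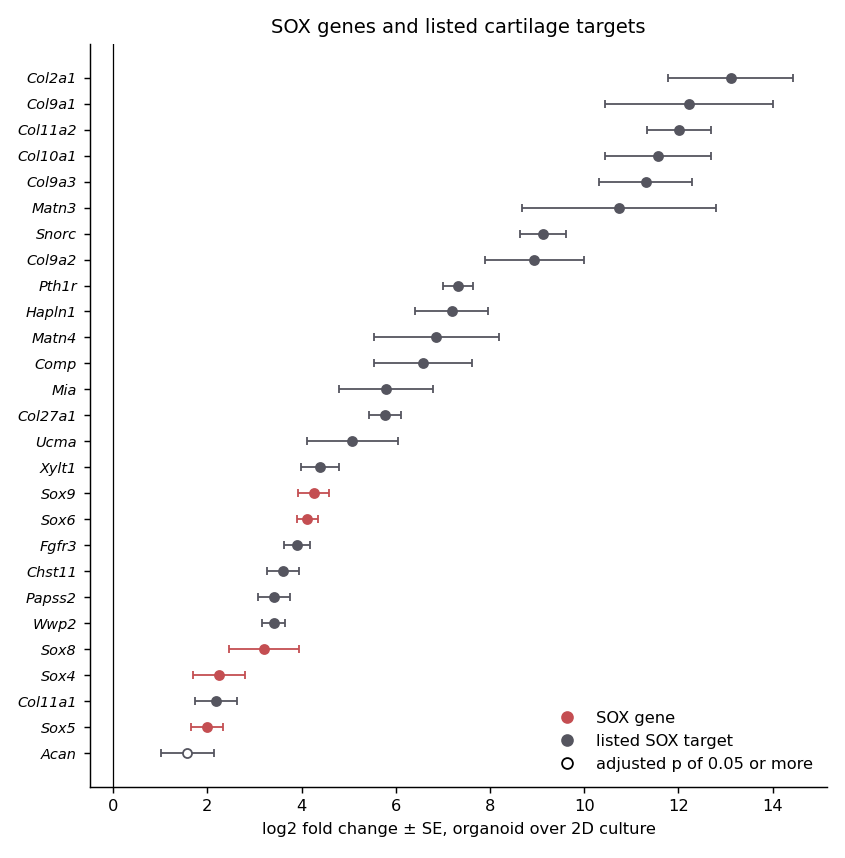
Log2 fold change ± SE, organoid over 2D culture (x axis), of the 5 tested SOX genes and 22 tested SOX target genes, sorted by size. Col2a1 is at the top with 13.11, Sox9 and Sox6 lie in the lower part with 4.26 and 4.12, and Acan (open) did not pass.

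The markers also bear on the labels. Chondrocyte markers summed to 10844 to 97492 CPM in organoids and 1447 to 1547 CPM in 2D cultures, and in the flat cells nearly all of that was Acan, with Col2a1 at only 2.91 to 4.89 CPM and Cnmd at 0. Of 7 osteoblast markers 7 rose, against 14.9% of all tested genes, and 5 of them had at least 10 counts in every 2D culture. Their summed level was 12536 to 20504 CPM in organoids and 208 to 220 CPM in 2D cultures. Ibsp, of mineralised matrix, changed by 12.27 ± 0.50 and Bglap (osteocalcin) by 10.69 ± 0.62. Sp7, the osteoblast factor osterix, had 457, 718 and 512 CPM in organoids, against 65.5, 62.5 and 61.9 CPM in 2D cultures. Of 7 fibroblast or smooth muscle markers, 6 fell and 1 rose (Postn, by 1.82 ± 0.41, which lost its call without any single 2D culture), against 12.6% of all tested genes lower and 14.9% higher. Tagln, a contractile gene, changed by -6.31 ± 0.30. The 7 summed to 1165 to 1719 CPM in organoids and 6724 to 7456 CPM in 2D cultures. The part of these other markers in the SOX values was not tested.

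The 3 organoids ranked differently by gene. Organoid 2 was the lowest organoid for Sox8, Sox5 and Sox9 and the highest for Sox4 and Sox6. On the log2 scale it stood -2.66 from the mean of organoids 1 and 3 for Sox8, -0.70 for Sox5, -0.69 for Sox9, 0.21 for Sox6 and 1.66 for Sox4. Of the 22 tested SOX targets, organoid 2 was lowest for 16 (72.7%), against 35.8% of all tested genes, and organoid 1 was highest for 18 (81.8%), against 32.0%. The gap was wide for some fibril and matrix genes. Col2a1 had 78321, 6414 and 21945 CPM in organoids 1, 2 and 3, and Matn3, a cartilage matrilin, had 724, 6.73 and 191 CPM. Matn3 lost its call without any single 2D culture and with limma-voom. Other targets varied less among organoids, the fibril collagen genes Col11a2 and Col27a1 among them. Col27a1 had 448, 493 and 303 CPM in organoids 1, 2 and 3. Col11a2 had 1406, 1478 and 980 CPM in organoids 1, 2 and 3, and Pth1r, the receptor for parathyroid hormone-related protein, had 1530, 1320 and 1023 CPM. The osteoblast markers did not share the low value, since organoid 2 was lowest for 1 of the 7 and highest for 5. Among the 19 tested SOX9 cofactors it was highest for 14. Over all 13052 genes tested organoid 2 was highest for 4916. With 3 organoids these orders are a description only, and organoid 2 was also the library with the lowest total count.

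**Figure D4:**
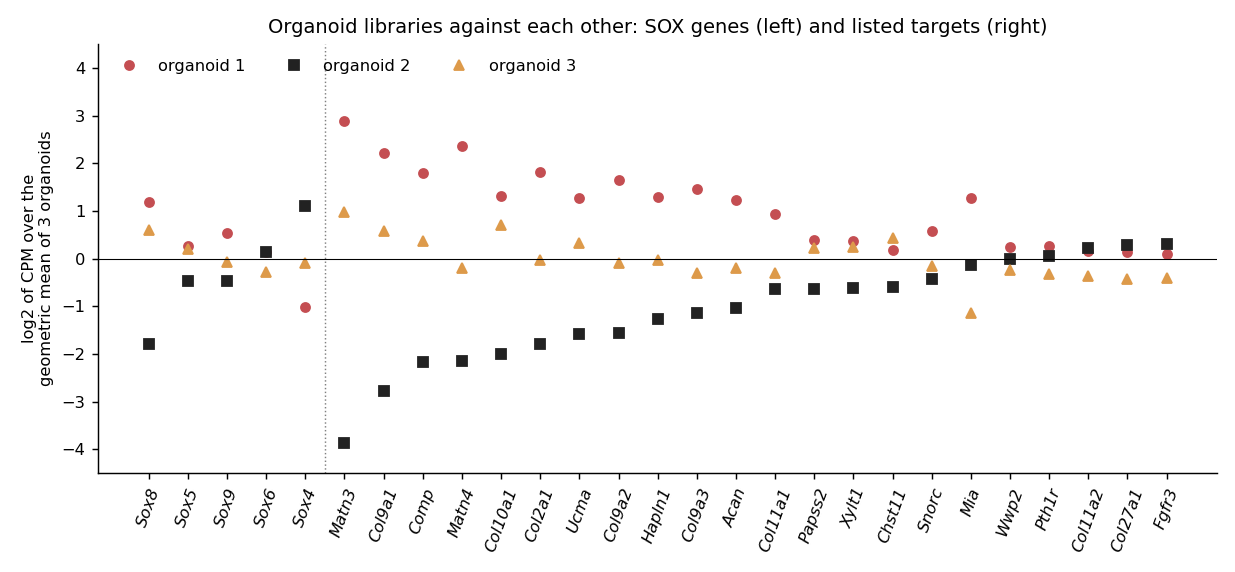
Log2 of CPM over the geometric mean of the 3 organoids (y axis) for the 5 tested SOX genes (left of the dotted line) and 22 SOX targets (right), each point an organoid library. Organoid 2 (black squares) is low for Sox8 and for most matrix genes and high for Sox4, and the 3 organoids lie close together for Sox6, Wwp2, Pth1r and Col11a2.

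Genes for proteins that assist or modify SOX9 changed less in transcript level. Of 21 listed, 19 were tested, 7 rose, 1 fell and 11 did not pass, with a median log2 fold change of 1.12, against 14.9% higher, 12.6% lower and a median of -0.03 over all tested genes. Med25, a Mediator subunit, rose by 1.89 ± 0.33 and lost its call without 2D culture 1 or 3. Smad3, of the TGF-beta pathway, rose by 1.27 ± 0.29 and lost its call without any single 2D culture and with total-count scaling. Wwp2, a ubiquitin ligase that binds SOX9 and is itself a SOX9 target, had 548, 458 and 393 CPM in organoids and 49.0, 38.6 and 44.1 CPM in 2D cultures (3.41 ± 0.24, edgeR adjusted p = 0.000377). Arid5a, which partners SOX9 on cartilage genes, rose by 2.47 ± 0.23, with 69.1, 69.2 and 57.5 CPM in organoids and 11.5, 10.2 and 13.6 CPM in 2D cultures. Its relative Arid5b, another partner, moved the other way, at 63.3, 62.0 and 43.0 CPM in organoids and 97.1, 104 and 90.0 CPM in 2D cultures (-0.79 ± 0.22, edgeR adjusted p = 0.0390). Arid5b lost its call without any single 2D culture, with limma-voom using group weights (adjusted p = 0.0538) and with the replicate block (edgeR adjusted p = 0.0694), and had a fractional count in 1 library. Trps1, a GATA-type repressor of the growth plate, rose by 2.19 ± 0.25, the kinase gene Gsk3b by 2.01 ± 0.31, and Maf, which had fractional counts in 3 libraries and lost its call without any single 2D culture, with total-count scaling and with the replicate block, by 2.05 ± 0.49. Ctnnb1, whose product beta-catenin opposes SOX9, had 253, 748 and 517 CPM in organoids and 193, 247 and 207 CPM in 2D cultures and did not pass (1.23 ± 0.40, edgeR adjusted p = 0.0597). Ctnnb1 was called with DESeq2, with limma-voom using group weights and without organoid 1. The acetyltransferase Crebbp did not pass (0.97 ± 0.42, edgeR adjusted p = 0.130). The number of these genes called higher was 11 with DESeq2 and 4 without 2D culture 1 or without 2D culture 3.

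The genes whose profile over the 6 libraries lay nearest to each SOX gene were found by Euclidean distance of centred log2 CPM among 8813 tested genes of at least 10 CPM. For Sox9 they were Cdo1, a cysteine dioxygenase (distance 0.173), Stc1, a secreted glycoprotein (0.262), and Mef2c, a factor of chondrocyte hypertrophy (0.301). Cdo1 had 268, 132 and 180 CPM in organoids and 9.96, 9.02 and 9.87 CPM in 2D cultures, the same ranking as Sox9 among organoids. For Sox6 they were Bambi, a decoy receptor of TGF-beta family signals (0.304), Ddit4, a stress-induced inhibitor of mTORC1 (0.370), and the SOX target Fgfr3 (0.372). For Sox8 they were Slc40a1, the iron exporter ferroportin (0.379), Epas1, which encodes HIF-2 alpha (0.559), and Net1 (0.630). Slc40a1 shared the low organoid 2, with 63.0, 7.15 and 37.2 CPM in organoids, against 4.63, 4.83 and 3.31 CPM in 2D cultures. For Sox5 they were Pcyt1a (0.290), of phosphatidylcholine synthesis, the kinase gene Pim3 (0.301) and the glycolytic enzyme gene Gpi (0.365). For Sox4 they were the Golgi gene Tmf1 (0.368), Fnbp1l (0.372) and Metrnl (0.385). Likeness over 6 libraries in 2 groups rests largely on the difference between the groups.

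The genes beside the 7 SOX genes on the chromosome (the nearest protein-coding gene of the files on each side, by the RefSeq gene order of GRCr8) were also compared. Of 14 such neighbours 10 were tested and 2 were called, 1 in each direction, against 27.5% of all tested genes called, so the count is near that background. Etnk1, an ethanolamine kinase gene beside Sox5, rose by 2.48 ± 0.60 (edgeR adjusted p = 0.0240) and lost its call without any single 2D culture and with total-count scaling, and it was at 1.62 without organoid 2. Polr2f, an RNA polymerase subunit gene beside Sox10, fell by 1.01 on the log2 scale (edgeR adjusted p = 0.0267) and lost its call without any single 2D culture, with limma-voom using group weights and with the replicate block. The neighbours of Sox9 are Kcnj2, with 1 count over the organoids and 2 over the 2D cultures, and Slc39a11, a zinc transporter gene that was not called.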

How the data were processed

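mRNA was sequenced from 6 rat libraries, 3 of condylar organoid and 3 of 2D culture, grouped by their titles. Libraries were made for the DNBSEQ platform, per the labels' protocols. HISAT, HISAT2, Bowtie2, RSEM and DESeq2 are named in the submitters' processing notes without versions or roles. Genome build, annotation and strandedness: not given in the sources used here. The authors deposited expected counts, which can be fractional, for 17954 genes, not normalised, with 1846 to 2501 fractional values per library and 0 rows without a gene. Counts were rounded.

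Genes were kept by filterByExpr (minimum count 10), scaled by TMM and tested with edgeR 4.0.16 in R 4.3.3 (robust quasi-likelihood test, no block, Benjamini-Hochberg adjustment). limma 3.58.1 and DESeq2 1.42.0 were alternatives. Log2 CPM used a prior count of 2, and ratios an offset of 0.5. Limits of 3 counts and intervals cover counting error only. A fold given as "at least" sets that limit for the group with 0 counts and takes the other group's counts as exact. Every pair of replicates differed by more than counting noise (lowest chi-square over degrees of freedom 8.80). The fit was tested on simulated data with the same spread in both groups. That test does not cover the unequal spread of these organoids and 2D cultures. The SOX genes and 10 further gene lists were chosen with earlier results of these data known. Named genes are the members, other Sox genes of at least 1 CPM, per list the 5 largest called changes among genes reaching 1 CPM, and 2 in the opposite direction, targets and cofactors of at least 100 CPM, and the 3 nearest profiles per member. Matn1, Matn3, Cnmd, Scrg1, Mia, Med25, Smad3, Sp7, Gdf5, Dcx and Prox1 were named after their values were seen. So were the neighbours, the other low Sox genes and markers, and the targets of smaller change. The RefSeq gene table (GRCr8), which held 17720 of the 17954 gene IDs, gave gene order only, and the promoter table gave sequences. A few genes of these lists are not reported here by name.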

Additional observations from a re-analysis of the deposited data

How the results depend on the processing

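Sox9 and Sox6 kept their call and direction in all 15 alternative settings, chosen with earlier results known. Leaving out 1 library at a time gave log2 fold changes of 3.97 to 4.51 for Sox9, 4.07 to 4.23 for Sox6, 1.56 to 2.63 for Sox4, 1.84 to 2.23 for Sox5 and 2.64 to 3.73 for Sox8, with 2 to 5 SOX genes called. Over the same fits 1109 to 5321 genes of the whole table were called, and 4 to 10 SOX9 cofactors were called higher. Total library size gave 1.71 for Sox4 and limma-voom 2.80 for Sox8, neither called, and DESeq2 called 11 cofactors higher. The cause was not tested. Fits without a 2D culture have fewer samples of the less variable group. The count of SOX targets that rose stayed between 16 and 24. The labels do not say whether replicate numbers pair the libraries, and 3 libraries per group are too few to settle it. Same-number correlations of deviations were 0.0606, 0.187 and 0.0207, and those of unlike numbers were -0.135 to 0.0698. With the replicate block 2730 genes and 5 SOX genes were called, and not every organoid correlated best with its own number. Sox13, never called, turned to -0.65 with total library size, -0.018 with no filter, -1.55 by limma-voom, -1.52 by its group-weighted form, -0.73 with the replicate block and -0.44 to 0.61 with 1 library left out. Of 1003 other values over 67 further genes, 911 kept direction and call, 76 lost a call, 8 gained 1 and 8 changed direction, all 8 of Sox13. Both ratios kept their sign. Sox10 and Sox11 are limited by depth, since 3 counts are 0.0917 to 0.18 CPM per library.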
